A study of Mus musculus with 2 samples.

Results

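The 9 genes described here make, break down or receive prostaglandins: Ptgs1, Ptgs2, Ptges, Ptges3, Ptgis, Hpgd, Ptger2, Ptger4 and Ptgir. They were taken by symbol from the 22441 genes listed in both matrices, and all 9 were found with at least 1 UMI (unique molecular identifier, 1 counted RNA molecule) in each library. The data are droplet single-cell RNA counts from the hearts of untreated C57/B6 mice, 1 library per genotype. The wild-type library came from pooled littermate controls and the AC8 library from pooled mice overexpressing adenylyl cyclase 8, an enzyme that makes cyclic AMP, in cardiomyocytes according to the series title. Each library mixed sorted leukocytes (CD45+CD31-), mesenchymal cells (CD45-CD31-) and endothelial cells (CD45-CD31+) in equal numbers, so cardiomyocytes, the cells that carry the transgene, were not sorted. Neither the age of the mice, the number pooled nor the promoter of the transgene is given in the labels.

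Prostaglandins are short-lived lipid messengers cut from membrane arachidonic acid. Phospholipases release the acid, the cyclooxygenases Ptgs1 and Ptgs2 turn it into prostaglandin H2, and terminal synthases shape that into individual products, among them prostaglandin E2 (Ptges) and prostacyclin (Ptgis). Cells sense these through G protein-coupled receptors, of which Ptger2, Ptger4 and Ptgir act through Gs and so raise cyclic AMP, and Hpgd inactivates the E series. In the heart prostacyclin is known as a dilator of vessels and an inhibitor of platelets, and prostaglandin E2 as a mediator of inflammation and fibroblast behaviour.

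Pooling left 1 sample per genotype, so the differences given here have no replicates behind them, and no statistical test was made. In paired values the wild-type library stands first and the AC8 library second. The libraries held 5800 and 4867 cells with 9664932 and 11076564 UMIs. After filtering, 3546 and 3578 cells remained, with a median of 1884.5 and 2321 UMIs. They formed 18 clusters in 10 classes, each named here from marker genes and therefore written "-like". The gated markers were present among all deposited cells, Ptprc (CD45) in 843 and 1045 and Pecam1 (CD31) in 1250 and 957. In all, 4 classes had at least 100 cells in both libraries and were compared: fibroblast-like (1898 and 1532 cells), endothelial-like (623 and 572), macrophage-like (580 and 716) and B cell-like (113 and 293). Dendritic cell-like (77 and 157), mural-like (68 and 75), NK cell-like (67 and 65) and T cell-like cells (54 and 78) are given as levels, as are the smaller monocyte-like (35 and 68) and Schwann-like (31 and 22) classes. Adcy8 itself had 0 and 1 UMI, so these cells could not check the genotype labels. Levels are UMIs of a gene per 1000000 UMIs of the class (CPM) with an exact 95% Poisson interval, and ratios of AC8 over wild type carry an exact conditional binomial 95% interval. Both cover counting error only, and take UMIs as independent, which they are not where a handful of cells holds most of them.

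Ptgs1 and Ptgs2 catalyse the same reaction, and their counts lay largely in different classes. The stretches before their starts are shown here as a description, and a link between these letters and cell class was not tested. RefSeq promoters (GRCm38.p6, 250 bases before and 50 after the start) were on hand for 8 of the 9 genes, and those letters were searched on both strands for 6 motifs. The motifs were TGACG, the core of the cyclic AMP response element, its full form TGACGTCA, the E-box CACGTG, the C/EBP-type TTGCNNAA, the TATA box TATAAA and the NF-kB-type GGNNTTTCC. Capitals mark every match. The long stretches end at the base before the start, and the short one lies within the first 50 bases after it.
Ptgs2, chr1:150099781-150100030, plus strand: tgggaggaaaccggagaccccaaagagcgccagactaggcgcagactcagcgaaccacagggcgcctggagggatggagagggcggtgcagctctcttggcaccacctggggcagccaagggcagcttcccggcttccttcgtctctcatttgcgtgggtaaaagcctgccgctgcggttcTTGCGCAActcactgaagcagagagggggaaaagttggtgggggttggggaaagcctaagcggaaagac
Ptgs2, chr1:150100036-150100065, plus strand: caccactaCGTCACGTGgagtccgctttac
Ptgs1, chr2:36230176-36230425, plus strand: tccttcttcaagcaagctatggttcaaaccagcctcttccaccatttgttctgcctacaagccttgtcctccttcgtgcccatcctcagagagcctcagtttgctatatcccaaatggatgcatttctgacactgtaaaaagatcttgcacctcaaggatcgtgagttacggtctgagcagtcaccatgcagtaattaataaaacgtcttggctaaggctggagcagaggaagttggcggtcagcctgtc

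The Ptgs2 window held 3 of the 6 motifs. TTGCGCAA began 69 bases before the start, CGTCA, the core TGACG read on the other strand, began at base 14 after it, and CACGTG at base 17, sharing the letters CA with it. Across 32851 RefSeq promoters of 300 bases, TGACG was present in 20.8%, CACGTG in 7.2% and TTGCNNAA in 10.8%. The Ptgs1 window held none of the 6. These positions hold only for the start used here. GENCODE vM21 lists 2 transcript starts for Ptgs2 and 5 for Ptgs1, so a motif after this start can lie before another. Among the other members, Ptges3 had CGTCA, Ptger2 a TTGCNNAA match and Hpgd TATAAA (13.6% of all promoters), each after its start. TGACGTCA (1.8% of all promoters) and GGNNTTTCC (5.8%) occurred in none of the 8 windows, which says only that these letters are not in this stretch.

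**Figure D1:**
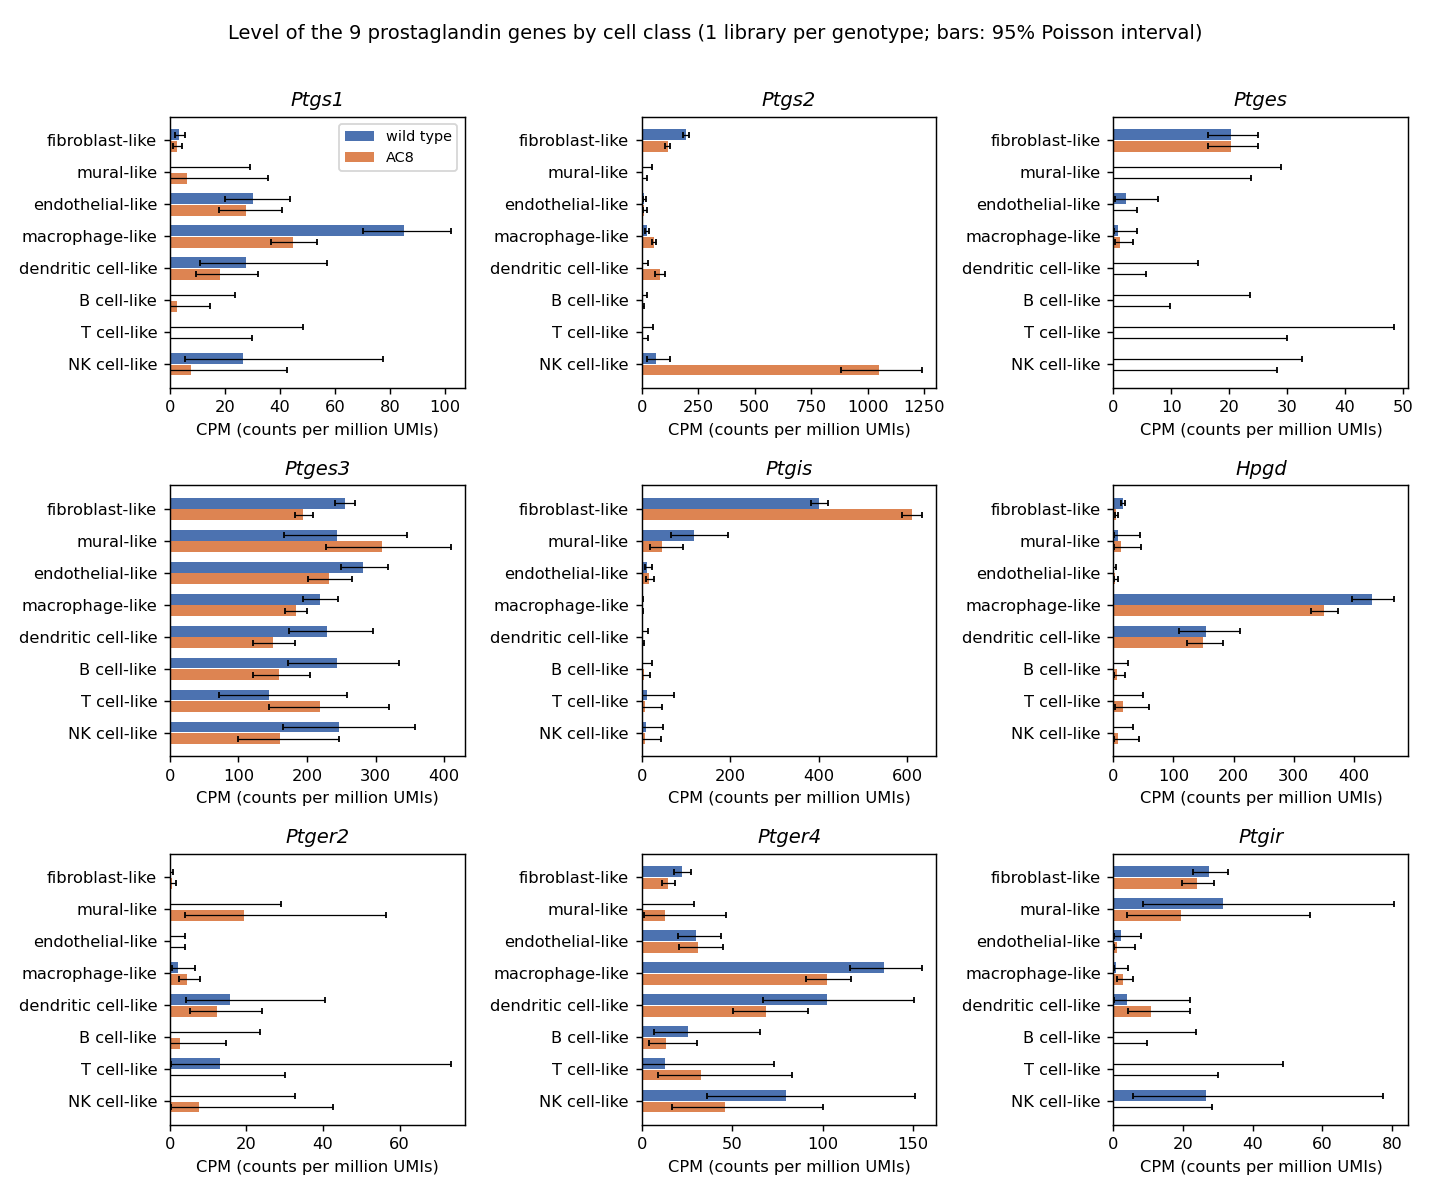
Level (CPM, x axis) of each of the 9 genes in 8 cell classes (y axis), wild type in blue and AC8 in orange, 1 library each, with exact 95% Poisson intervals; x axes differ between panels. Ptgs2, Ptges, Ptgis and Ptgir stand highest or near highest in fibroblast-like cells, Ptgs1, Hpgd and Ptger4 in macrophage-like cells, and Ptges3 is present in all 8; the tall AC8 bar of Ptgs2 in NK cell-like cells comes from few cells.

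Ptgs2, the inducible cyclooxygenase (chromosome 1, 150100031 to 150108227 in GRCm38, plus strand unless stated, as for the members after it), was chiefly a fibroblast-like gene. Its level there was 196 CPM (184 to 210) for wild type against 115 CPM (105 to 126) for AC8, from 859 UMIs in 287 cells and 506 UMIs in 195 cells. The fibroblast-like class held 93.4% of the wild-type Ptgs2 UMIs of kept cells and 59.5% of those in AC8. The AC8 over wild-type ratio was 0.587 (0.525 to 0.656). With every cell thinned to 1000 UMIs, 9.80% (8.50 to 11.2) of 1898 wild-type and 6.53% (5.34 to 7.88) of 1532 AC8 cells had a Ptgs2 UMI, against 15.1% and 12.7% before thinning. B cell-like cells, which should lack it, had a Ptgs2 UMI in 0 of 113 and 0 of 293 cells, which allows shares of cells with a UMI of up to 2.65% and 1.02% (3 counts) at median depths of 1227 and 1170 UMIs against 2162 and 2738 in fibroblast-like cells. The wild-type B cell-like class also held endothelial marker RNA, 1941 CPM over 10 genes against 320 CPM in AC8, and lymphatic endothelial marker RNA, 711 against 5.29 CPM, beside B cell markers at 9989 and 9957 CPM. Endothelial-like cells were near that background, with 0.482% and 0.524% of cells at the thinned depth.

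Ptgs2 was uneven from cell to cell within the fibroblast-like class. Wild-type cells with Ptgs2 held 2.99 UMIs on average and AC8 cells 2.59. In wild type, 44 cells with 5 or more UMIs held 441 of the 859 UMIs, and the richest cell had 28. In AC8, 34 such cells held 239 of the 506, and the richest had 19. Leaving out the 5 cells of each library with the most Ptgs2 gave a ratio of 0.593, close to that of all cells.

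The lower AC8 level recurred in each of the 5 fibroblast-like clusters, but by different amounts. Cluster 0, led by Mt1, Osr1 and C3, went from 251 to 70.9 CPM (ratio 0.283, 0.224 to 0.355). Cluster 10, led by Macf1 and Nfat5, had the highest levels, 555 and 253 CPM (0.456, 0.292 to 0.691). The other 3 were closer together, at 185 and 138 CPM in the Cd248 and Pi16 cluster 1 (0.745, 0.615 to 0.902), 106 and 69.0 CPM in the Smoc2 and Lpl cluster 2 (0.653, 0.420 to 0.979), and 273 and 198 CPM in the Igfbp3 and Apoe cluster 5 (0.723, 0.564 to 0.925). The clusters were unequally filled by the libraries: 64.0% of cluster 0 and 18.7% of cluster 2 were AC8 cells.

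In fibroblast-like cells, genes of tissue handling differed between the libraries in the same direction as Ptgs2. A list of 17 immediate-early and heat shock genes, known to respond to tissue dissociation, took 4.32% of wild-type and 3.72% of AC8 fibroblast-like UMIs, and 13 of the 17 were lower in AC8, among them Egr1 (4624 and 2879 CPM) and Hspa1a (553 and 312 CPM). Cells with Ptgs2 after thinning had a higher median share of these genes than cells without it, 5.15% against 4.20% in wild type and 4.42% against 3.66% in AC8. When the class was split at its median handling share, 4.01%, the upper part had 284 CPM of Ptgs2 (263 to 306) for wild type against 152 CPM (134 to 170) for AC8, a ratio of 0.534 (0.463 to 0.615). The lower part had 87.8 CPM (75.1 to 102) and 89.2 CPM (78.0 to 102), a ratio of 1.02 (0.830 to 1.247). In this split, chosen after the values were seen, the lower AC8 level lay in the part with more handling-gene RNA. In the lower part the libraries were within counting error of each other. In this class the median log2 ratio of the 17 handling genes was -0.25, against -0.08 for all genes with at least 30 UMIs. Endothelial-like cells went the other way, with a handling share of 3.12% and 3.67% and 13 of the 17 genes higher in AC8. Their median log2 ratio there was 0.21, against -0.02 for all genes with at least 30 UMIs. The handling share was also higher in AC8 in B cell-like cells, 1.31% and 1.70%. The part of handling in the fibroblast-like Ptgs2 difference was not tested.

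**Figure D2:**
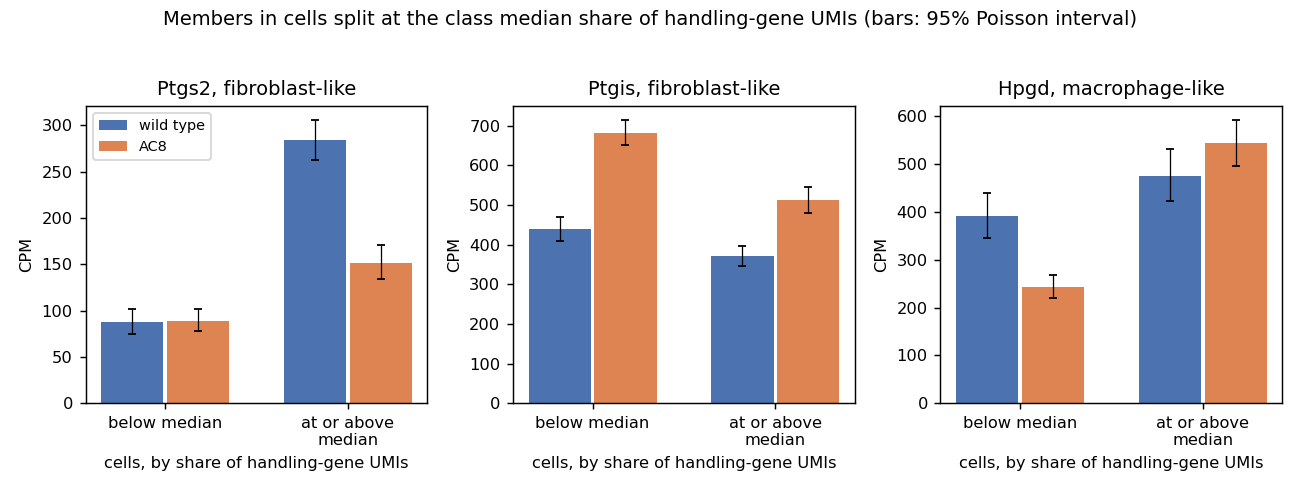
Level (CPM, y axis) of Ptgs2 and Ptgis in fibroblast-like cells and of Hpgd in macrophage-like cells, split at the class median share of handling-gene UMIs (x axis), with exact 95% Poisson intervals. Ptgs2 is 87.8 and 89.2 CPM below the median but 284 and 152 CPM at or above it, Ptgis is higher in AC8 on both sides, and Hpgd is lower in AC8 below the median and not at or above it.

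In macrophage-like cells Ptgs2 stood the other way. Its level was 24.6 CPM (16.9 to 34.5) for wild type against 53.0 CPM (44.6 to 62.6) for AC8, from 33 UMIs in 19 cells and 139 UMIs in 44 cells, a ratio of 2.16 (1.47 to 3.26). Most of the AC8 counts lay in cluster 11, led by Lgals3, Spp1 and Gpnmb, genes known from lipid-handling macrophages. That cluster had 6 wild-type and 142 AC8 cells and held 98 of the 139 AC8 UMIs, at 119 CPM (96.9 to 145), while its 6 wild-type cells held 13 of the 33, at 394 CPM (210 to 674). Without this cluster the class ratio was 1.49, and without the 5 richest cells of each library it was 3.32. In the MHC class II cluster 4 Ptgs2 was 18.1 and 22.0 CPM (ratio 1.22, 0.599 to 2.54), and in the Lyve1 and Folr2 cluster 6 it was 10.4 and 23.6 CPM (2.27, 0.826 to 7.73). Handling genes took less of the macrophage-like total in AC8, 4.78% against 5.64%, and the median share was 5.30% in the 10 wild-type cells with Ptgs2 after thinning against 5.79% without, and 2.95% in 21 AC8 cells against 5.28%. The AC8 cells with Ptgs2 were also deeper, with a median of 4732 UMIs against 3182. In this class, then, handling genes and Ptgs2 differed between the libraries in opposite directions. Dendritic cell-like cells had 2 UMIs in 2 of 77 wild-type cells and 52 UMIs in 19 of 157 AC8 cells. Their levels were 7.90 CPM (0.957 to 28.5) and 79.6 CPM (59.4 to 104), and their median depths were 3021 and 3960 UMIs. That class also held macrophage marker RNA, 6394 and 6549 CPM over 10 genes against 17959 and 19280 CPM in macrophage-like cells. Its dendritic cell markers summed to 2303 and 2398 CPM.

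The highest Ptgs2 level of any class was in AC8 NK cell-like cells, 1051 CPM (882 to 1242) against 61.8 CPM (24.9 to 127) in wild type, from 137 and 7 UMIs in 9 and 3 cells. After these values were seen, the cells were looked up, and 135 of the 137 UMIs lay in 7 cells with at least 3 UMIs of Hdc, the histamine-forming histidine decarboxylase. These cells had 52, 26, 20, 15, 14, 5 and 3 Ptgs2 UMIs within totals of 1007 to 1896 UMIs. Outside such cells the 2 libraries had 6 and 2 Ptgs2 UMIs in the class. Over all deposited cells, 13 wild-type and 10 AC8 cells reached 3 Hdc UMIs, with 9 and 135 Ptgs2 UMIs. None of them had a UMI of the NK cell genes Ncr1, Gzma or Klrb1c. Of these cells 6 and 7 had Ccl4, 2 and 4 had Cd200r3, 2 and 4 had Gata2, and 2 and 1 had Mcpt8. The mast cell marker Cpa3 was seen in 1 and 3, and the neutrophil genes S100a8 and Retnlg in 8 and 3. These Hdc cells are left without a cell type name, and the AC8 value is that of 7 cells, not of NK cell-like cells. The NK cell-like class was mixed in both libraries. Neutrophil markers summed to 2659 and 7178 CPM and T cell markers to 1740 and 2117 CPM, beside 4338 and 5092 CPM of NK cell markers.

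**Figure D3:**
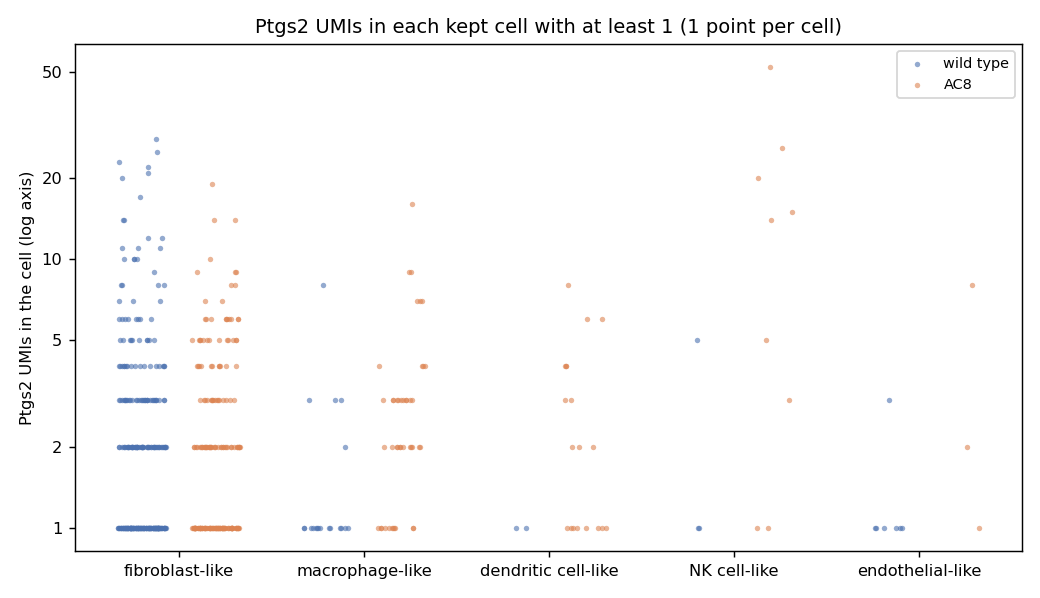
Ptgs2 UMIs (y axis, log scale) in every kept cell that had at least 1, by cell class (x axis) and library, 1 point per cell with random horizontal spread. Fibroblast-like cells carry Ptgs2 in many cells of both libraries (287 and 195), macrophage-like and dendritic cell-like cells in more AC8 than wild-type cells, and the AC8 NK cell-like total rests on single cells with up to 52 UMIs.

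Ptgs1, the constitutive cyclooxygenase and the source of platelet thromboxane (chromosome 2, 36230426 to 36252272), was highest in macrophage-like cells. It stood at 84.9 CPM (70.0 to 102) for wild type against 44.6 CPM (36.9 to 53.5) for AC8, from 114 UMIs in 100 cells and 117 UMIs in 95 cells. The ratio was 0.526 (0.403 to 0.687), the reverse of Ptgs2 in the same cells. Cluster 11 contributed only 8 of the 117 AC8 UMIs, 9.74 CPM (4.21 to 19.2). Without it the ratio was 0.702, and within clusters 4 and 6 the levels were 83.2 and 60.9 CPM (0.732, 0.507 to 1.05) and 91.7 and 60.2 CPM (0.657, 0.430 to 1.01). At equal depth 8.28% and 3.91% of macrophage-like cells had a Ptgs1 UMI (17.2% and 13.3% unthinned), against 0% and 0.341% of B cell-like cells. Endothelial-like cells came next at 30.2 and 27.7 CPM from 28 and 25 UMIs (ratio 0.917, 0.513 to 1.63), and fibroblast-like cells had 3.43 and 2.51 CPM. In AC8 the intervals of macrophage-like cells and endothelial-like cells overlapped.

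Ptgis, the prostacyclin synthase (chromosome 2, 167191805 to 167240604, minus strand), was the member that stood higher in AC8 fibroblast-like cells. Fibroblast-like cells held 98.3% and 99.0% of its UMIs. The level was 401 CPM (383 to 420) for wild type against 611 CPM (588 to 635) for AC8, from 1754 UMIs in 990 cells and 2683 UMIs in 1059 cells, a ratio of 1.52 (1.43 to 1.62). At equal depth 30.5% (28.4 to 32.6) of wild-type and 41.2% (38.7 to 43.7) of AC8 fibroblast-like cells had it, and 52.2% and 69.1% before thinning. No B cell-like cell had it at that depth, and 0.803% and 1.40% of endothelial-like cells did, although endothelium is the textbook source of prostacyclin. The ratio was above 1 on both sides of the median handling share, 1.38 (1.26 to 1.52) at or above it and 1.55 (1.43 to 1.69) below it.

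By cluster, Ptgis was highest in the Cd248 and Pi16 cluster 1, at 556 and 888 CPM (1.596, 1.46 to 1.75). The ratio was 1.605 (1.32 to 1.96) in cluster 5, 1.36 (1.13 to 1.62) in cluster 2 and 1.17 (1.03 to 1.34) in cluster 0. In the small cluster 10 it was 0.80 (0.519 to 1.21), with 379 and 304 CPM. Mural-like cells had 15 UMIs in 5 wild-type cells, 8 of them in 1 cell, and 7 UMIs in 6 AC8 cells, 118 CPM (66.1 to 195) and 45.0 CPM (18.1 to 92.8).

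Ptges, the inducible microsomal prostaglandin E synthase (chromosome 2, 30889471 to 30929863, minus strand), was confined in these counts almost wholly to fibroblast-like cells. The class held 89 UMIs in 80 cells and 89 UMIs in 83 cells, 20.4 CPM (16.3 to 25.04) and 20.3 CPM (16.3 to 24.9). The ratio was 0.996, with an interval of 0.734 to 1.35. All other classes together had 3 UMIs in each library. At equal depth Ptges was seen in 1 of 186 wild-type and 4 of 100 AC8 fibroblast-like cells with Ptgs2, against 35 of 1712 and 34 of 1432 without it, with overlapping exact intervals in each library. Ptgis was seen in 34.9% (28.1 to 42.3) of wild-type cells with Ptgs2 against 29.97% (27.8 to 32.2) without, and in 42.0% (32.2 to 52.3) against 41.1% (38.6 to 43.7) in AC8.

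Ptges3, the cytosolic synthase that is also the Hsp90 co-chaperone p23 (chromosome 10, 128058954 to 128077272), was present in all 10 classes. Levels ran from 145 to 282 CPM in wild type and from 150 to 342 CPM in AC8, and in neither library did the intervals of neighbouring classes in that order stand apart. Between some classes further apart in the order Ptges3 did differ. It was higher in endothelial-like than in macrophage-like cells, 249 to 319 against 195 to 245 CPM in wild type and 202 to 266 against 167 to 201 CPM in AC8. In AC8 it was also higher in mural-like (228 to 409 CPM) than in dendritic cell-like cells (122 to 183 CPM). In the 4 compared classes it was lower in AC8, at 255 and 195 CPM in fibroblast-like cells (ratio 0.764, 0.698 to 0.836), 282 and 232 CPM in endothelial-like cells (0.824, 0.684 to 0.991), 219 and 184 CPM in macrophage-like cells (0.838, 0.724 to 0.972) and 243 and 159 CPM in B cell-like cells (0.651, 0.427 to 1.01), whose wild-type class held the endothelial RNA given above. T cell-like, mural-like and Schwann-like cells had the higher level in AC8 (220 against 145, 309 against 244 and 342 against 275 CPM), with overlapping intervals. A processed pseudogene of Ptges3 lies on chromosome 6, so some of its reads could have been assigned ambiguously.

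**Figure D4:**
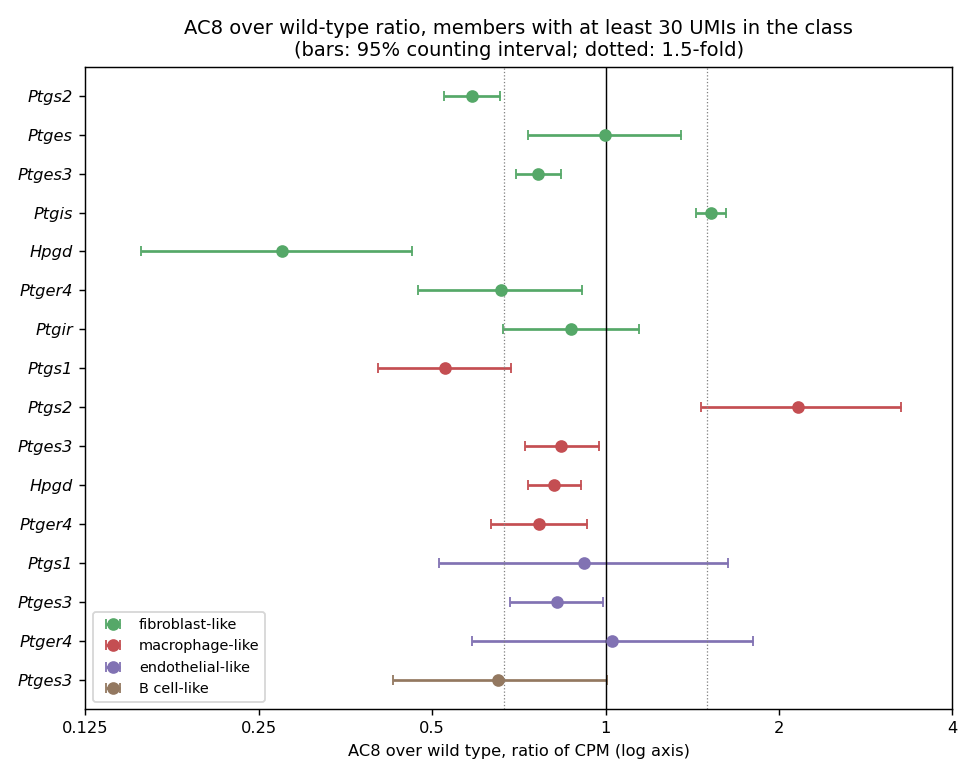
AC8 over wild-type ratio of CPM (x axis, log scale) of each member with at least 30 UMIs in a class (y axis, coloured by class), with exact 95% counting intervals, a solid line at 1 and dotted lines at 1.5-fold either way. In fibroblast-like cells Ptgis lies above 1 (1.52) and Ptgs2, Ptges3, Hpgd and Ptger4 below, and in macrophage-like cells Ptgs2 lies above 1 (2.16) and Ptgs1, Ptges3, Hpgd and Ptger4 below.

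Hpgd, the 15-hydroxyprostaglandin dehydrogenase that inactivates prostaglandins (chromosome 8, 56294585 to 56321043), was a macrophage-like gene, with 82.8% and 84.3% of its UMIs there. Its level was 431 CPM (397 to 468) for wild type against 351 CPM (329 to 374) for AC8, from 579 UMIs in 294 cells and 920 UMIs in 377 cells. The ratio was 0.814 (0.733 to 0.905). The 3 clusters of the class differed in level and direction. The Lyve1 and Folr2 cluster 6 had 571 and 514 CPM (0.900, 0.772 to 1.05), the MHC class II cluster 4 had 366 and 417 CPM (1.14, 0.977 to 1.32), and the almost purely AC8 cluster 11 had 107 CPM (85.9 to 132) in its 142 AC8 cells. Without cluster 11 the ratio was 1.05, and with each cell thinned to 1000 UMIs it was 1.01. At that depth 30.7% and 28.4% of macrophage-like cells had an Hpgd UMI (50.7% and 52.7% unthinned). Dendritic cell-like cells, with the macrophage marker RNA given above, had 154 and 150 CPM. The part of macrophage RNA in these counts was not tested. Monocyte-like cells had 141 and 282 CPM from 11 and 45 UMIs, but that class differed in make-up between the libraries: neutrophil markers summed to 15758 and 614 CPM, beside 5159 and 3200 CPM of monocyte markers.

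Fibroblast-like cells had far less Hpgd, and less of it in AC8: 69 UMIs in 51 cells and 19 UMIs in 17 cells, 15.8 CPM (12.3 to 19.97) and 4.33 CPM (2.61 to 6.76). The ratio of 0.274 (0.156 to 0.461) was the lowest of any member in the compared classes with at least 30 UMIs. One wild-type cell held 10 of the 69 UMIs, and without the 5 richest cells of each library the ratio was 0.239. By cluster the levels were 17.3 and 0.661 CPM in cluster 1 (22 UMIs and 1), 13.7 and 2.46 CPM in cluster 2 (21 and 1), 27.0 and 10.4 CPM in cluster 5 (16 and 6) and 7.56 and 5.06 CPM in cluster 0 (6 and 9). The interval of the ratio excluded 1 in cluster 1 alone of these 4. The 10 macrophage markers together stood in fibroblast-like cells at 0.80% and 0.901% of their macrophage-like level, whereas Hpgd stood at 3.66% and 1.23% of its own. Relative to macrophage-like cells, Hpgd was thus more abundant than the markers in wild type and near them in AC8; the part of macrophage RNA in these counts was not tested. In endothelial-like cells Hpgd had 0 and 2 UMIs.

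**Figure D5:**
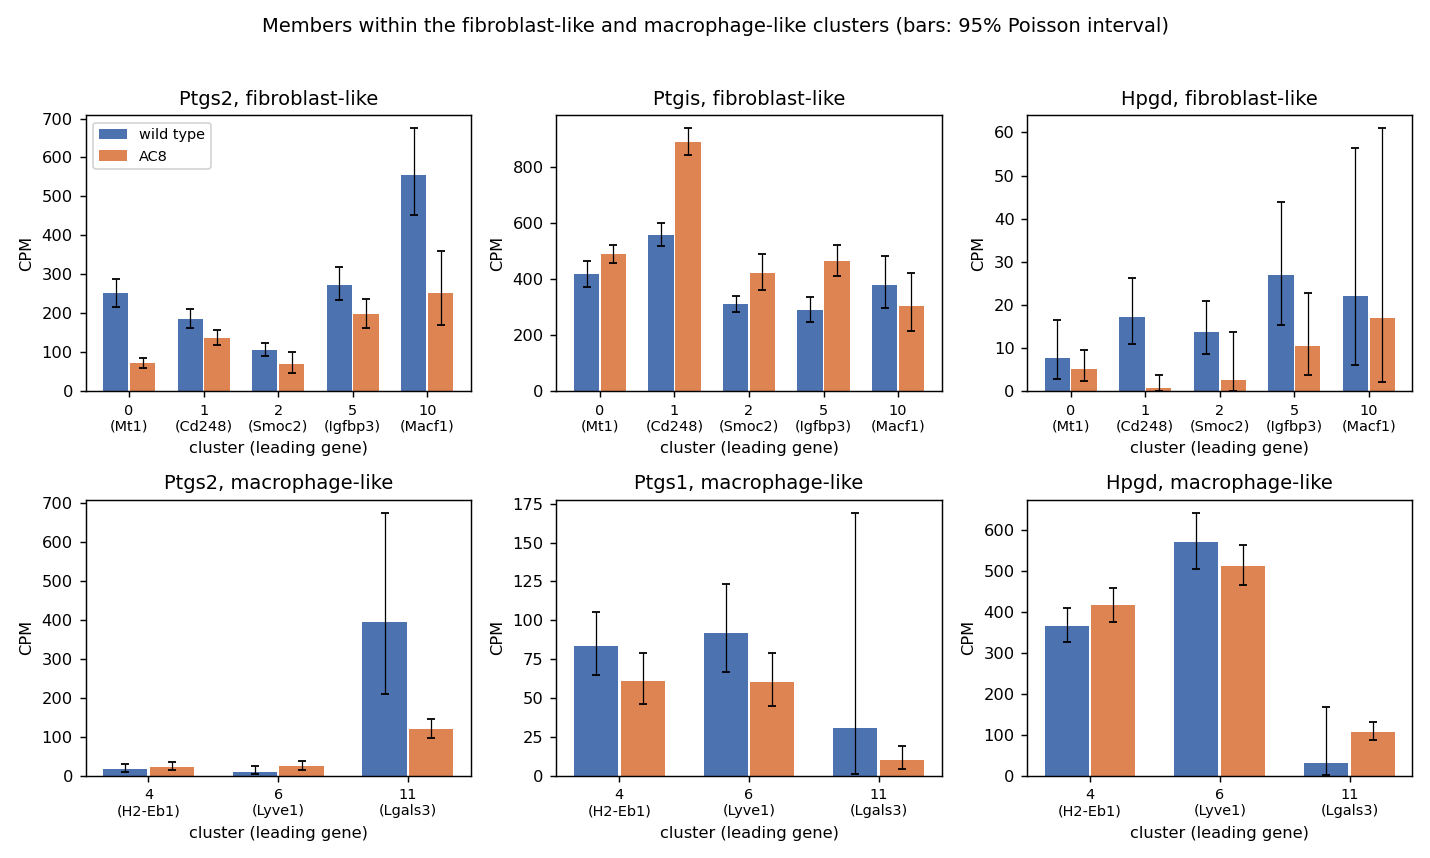
Level (CPM, y axis) of Ptgs2, Ptgis and Hpgd in the 5 fibroblast-like clusters (top) and of Ptgs2, Ptgs1 and Hpgd in the 3 macrophage-like clusters (bottom), each labelled with its leading gene (x axis), with exact 95% Poisson intervals. Ptgs2 is lower in AC8 in all 5 fibroblast-like clusters and Ptgis higher in 4 of them; cluster 11 holds 6 wild-type cells, hence its wide blue intervals.

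Of the receptors, Ptger4, the EP4 receptor of prostaglandin E2 (chromosome 15, 5206661 to 5244187, minus strand), had the most UMIs. Macrophage-like cells had 134 CPM (115 to 155) and 103 CPM (90.7 to 116), from 180 UMIs in 115 cells and 269 UMIs in 173 cells, a ratio of 0.766 (0.632 to 0.930). The clusters differed in direction: cluster 6 had 219 and 141 CPM (0.643, 0.490 to 0.844) and cluster 4 had 89.2 and 115 CPM (1.29, 0.955 to 1.76). Without cluster 11, which had 48.7 CPM (34.8 to 66.3) in AC8, the ratio was 0.931, and at equal depth it was 0.977. Dendritic cell-like cells, again with macrophage marker RNA, had 103 and 68.9 CPM, and endothelial-like cells 30.2 and 31.0 CPM (1.03, 0.586 to 1.80). The NK cell-like class, with the mixed marker RNA given above, had 79.5 and 46.0 CPM from 9 and 6 UMIs. Fibroblast-like cells had 22.2 and 14.6 CPM from 97 and 64 UMIs (0.657, 0.472 to 0.910), beside 25.6 and 13.2 CPM from 4 and 5 UMIs in B cell-like cells.

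Ptgir, the prostacyclin receptor (chromosome 7, 16906490 to 16910905), was found chiefly in the same class as the prostacyclin synthase. Fibroblast-like cells had 27.4 CPM (22.8 to 32.8) and 23.9 CPM (19.6 to 29.0), from 120 and 105 UMIs, a ratio of 0.872 (0.664 to 1.14). Mural-like cells, which relax in response to prostacyclin, had 31.5 and 19.3 CPM from 4 and 3 UMIs, with intervals that overlapped those of fibroblast-like cells. Macrophage-like cells had 1 and 7 UMIs. Ptger2, the EP2 receptor (chromosome 14, 44988195 to 45003820), was sparse, with 10 and 31 UMIs in all deposited cells. Macrophage-like cells had 3 and 12 of these (ratio 2.05, counting interval 0.553 to 11.3), dendritic cell-like cells 4 and 8, and fibroblast-like cells 0 and 2.

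Several members overlap other annotated genes (GENCODE vM21), and the labels do not state whether counting used strand. Ptger4 shares 11676 bases with Ttc33 on the opposite strand, all 15626 bases of Ptger2 lie within the antisense gene Gm17173, and Ptgis overlaps the antisense gene Gm14291 by 1224 bases. Reads from these partners cannot be told apart from those of the member without strand. On the same strand, Hpgd shares 3606 bases with Gm45540 and Ptges shares 380 bases with the processed pseudogene Gm13400. Strand would not separate those reads.

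Most members with enough counts had a ratio below 1, and the median ratio of all genes was also below 1 in each class below. In fibroblast-like cells 7 members had at least 30 UMIs: 1 was at least 1.5-fold higher in AC8 (Ptgis), where 4.35% of all 10626 such genes were, and 3 were at least 1.5-fold lower (Ptgs2, Hpgd and Ptger4), where 11.8% were. The median log2 ratio was -0.39 for the members and -0.08 for all genes. In macrophage-like cells 5 were measured, with 1 higher (Ptgs2) against 11.8% of 8456 genes and 1 lower (Ptgs1) against 13.8%, and medians of -0.30 and -0.03. In endothelial-like cells 3 were measured and none was 1.5-fold apart, against 8.01% higher and 9.98% lower among 7357 genes, with medians of -0.12 and -0.02.

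The pathway around the members was described from 32 further genes, of which 31 were in the matrices and 24 had at least 30 UMIs. The highest class of these genes was sought without the small monocyte-like and Schwann-like classes. Among the 15 measured in fibroblast-like cells 1 was at least 1.5-fold higher in AC8 and 1 lower. The higher one was Ptgr1, a prostaglandin reductase (13.3 and 23.0 CPM, 1.73, 1.24 to 2.44), and the lower one the thromboxane receptor Tbxa2r (8.92 and 5.92 CPM, 0.664, 0.388 to 1.12). Pla2g4a, the cytosolic phospholipase that supplies arachidonic acid, stood at 52.1 and 47.6 CPM there (0.913, 0.753 to 1.11). Among the 16 measured in macrophage-like cells 4 were higher and 1 lower. The lower one was Hpgds, the haematopoietic prostaglandin D synthase (127 and 79.4 CPM, 0.623, 0.507 to 0.768), and the higher ones were the leukotriene A4 hydrolase Lta4h (34.3 and 57.2 CPM, 1.67, 1.19 to 2.38), Cbr3 (2.09, 1.10 to 4.32), Ptgr1 (1.74, 0.964 to 3.34) and Ptges2 (1.505, 0.838 to 2.84). The intervals of Ptgr1 and Ptges2 included 1. Thromboxane synthase Tbxas1 (108 and 86.6 CPM) and 5-lipoxygenase Alox5 (104 and 81.7 CPM) were highest in macrophage-like cells with ratios of 0.802 (0.648 to 0.995) and 0.783 (0.630 to 0.976). In endothelial-like cells none of the 6 measured was 1.5-fold apart. The prostaglandin transporter Slco2a1 was highest there at 8.62 and 21.03 CPM, but its 8 and 19 UMIs were too few to enter that count (2.44, 1.02 to 6.44).

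For each member with at least 100 UMIs, the 3 most similar of 10496 genes were found by Pearson correlation of log2(CPM + 10) over 16 points, 8 classes in 2 libraries. These are descriptions, and points from 1 library share its depth and preparation. Ptgis was most like Ccdc80, Bgn and Fibin (0.98, 0.98 and 0.97) and Ptges like Lbp, Syt17 and Armh4 (0.998, 0.996 and 0.996). Fibroblast-like cells held 98.3% and 99.0% of Ptgis UMIs and 96.7% of Ptges UMIs in each library. These values therefore mainly set that class against the others. Hpgd was most like B4galt6, C1qc and Clec4a1 (0.97 each), Ptgs1 like Gpr160, Naip5 and Slc7a7 (0.94, 0.90 and 0.87), and Ptger4 like Vsir, Tnf and Alox5 (0.91, 0.90 and 0.90). Ptgs2 was most like Srxn1, Grina and Il6 (0.90, 0.87 and 0.86), one of the 16 points being the AC8 NK cell-like value of 7 cells. Ptges3 was most like Rabgap1, Gsk3b and Nudcd3 (0.89, 0.86 and 0.85) and Ptgir like Atp10a, Plxdc1 and Rem1 (0.91, 0.89 and 0.88).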

How the data were processed

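The members and gene lists were chosen with earlier results of these data known. The authors deposited raw UMI counts per gene and cell from 10x libraries, made with Cell Ranger against mm10 per the submitters' processing notes; the software version and the use of strand are not given in the sources used here. Cells with at least 1000 UMIs, 500 genes and at most 10% mitochondrial UMIs were kept. This removed 2066 and 1126 cells for depth and 15 and 18 for mitochondrial RNA, and a neighbourhood score on simulated doublets removed 173 and 145 at 0.8% per 1000 cells.

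Counts scaled to 10000 per cell were log-transformed, reduced to 30 components of 2000 variable genes and clustered by Leiden (resolution 1, 15 neighbours) in Python 3.11.15 with scikit-learn 1.9.0 and leidenalg 0.10.2. A cluster was named where at least 3 markers of a type were detected and its leading 10 genes did not favour another type. Raw counts were then summed per class and library. Intervals came from scipy 1.17.1, and the interval script was tested on simulated data. Ratios needed 30 summed UMIs in a class, and the correlation pseudocount was 10 CPM. All 9 members are named; other pathway genes could be named from 30 UMIs, and exceptions are marked as chosen after values were seen. Cell names are running numbers, so barcodes shared between libraries were not counted. Alternatives changed the filters, clustering, scaling, thinning, fold and minimum count; splits by handling genes, by cluster and without the richest cells were chosen after seeing the data.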

Additional observations from a re-analysis of the deposited data

Results flagged for a closer look

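Ptgs2 lay on opposite sides of equality in the 2 compared classes with at least 30 of its UMIs. The AC8 over wild-type ratio was 0.587 for the fibroblast-like class and 2.16 for the macrophage-like class, and neither counting interval reached 1. Both values depended on which cells entered: the fibroblast-like ratio was 1.02 below the median handling share, and the macrophage-like ratio was 1.22 in cluster 4 and 1.49 without cluster 11. Cluster 11 held 98 of the 139 AC8 UMIs and had 6 wild-type cells, with a higher wild-type than AC8 level (394 and 119 CPM). The difference between the classes was not tested, since each genotype is 1 library.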

How the results depend on the processing

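Of 146 ratios recomputed for members in their highest class, 119 stayed within the counting interval, 19 moved beyond it and 8 turned direction; in the other compared classes 117 stayed and 8 moved. The cause was not tested. Cells below the median handling share gave fibroblast-like Ptgs2 1.02, macrophage-like Hpgd 0.623 and Ptger4 0.551. Cells at or above it gave fibroblast-like Ptgis 1.38, macrophage-like Ptgs1 0.706, Hpgd 1.14 and Ptger4 1.18. Within cluster 4, Ptgs1 was 0.732, Ptgs2 1.22, Hpgd 1.14 and Ptger4 1.29. Without the cluster of almost only AC8 cells, macrophage-like Ptgs1 was 0.702, Hpgd 1.05 and Ptger4 0.931. Without the 5 richest cells of each library, macrophage-like Ptgs2 was 3.32, though these cells held unequal shares of its UMIs (57.6% and 34.5%). A mean over cells gave macrophage-like Hpgd 0.95, and thinning to 1000 UMIs gave Hpgd 1.01 and Ptger4 0.977. In fibroblast-like cluster 0, Ptgs2 was 0.283, Ptgis 1.17, Hpgd 0.670 and Ptgir 1.67. In cluster 1, Ptgs2 was 0.745, Ptges 1.52 and Hpgd 0.0383. In cluster 2, Ptges3 was 0.661 and Ptgis 1.36. In cluster 5, Ptgs2 was 0.723, Ptges 0.628 and Ptges3 0.840. In cluster 10, Ptgs2 was 0.456, Ptges3 0.996, Ptgis 0.80, Ptger4 0.976 and Ptgir 1.92.

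Requiring 2000 UMIs and 1000 genes moved the wild-type levels of macrophage-like Ptgs1 to 65.9 CPM and fibroblast-like Ptgs2 to 211 CPM; the other 104 of 106 recomputed levels stayed within their Poisson interval. Shares of cells with a UMI moved with thinning, and thinning to 2000 UMIs also leaves out every shallower cell (291 and 131 macrophage-like, 799 and 363 fibroblast-like, 545 and 482 endothelial-like), so depth and choice of cells change together. Unthinned and at 2000 UMIs, wild type then AC8, they were 17.2% and 12.8%, then 13.3% and 9.23% for macrophage-like Ptgs1, 50.7% and 54.7%, then 52.7% and 42.9% for Hpgd, and 19.8% and 21.1%, then 24.2% and 14.2% for Ptger4. In fibroblast-like cells they were 15.1% and 15.8%, then 12.7% and 10.01% for Ptgs2, 4.21% and 3.55%, then 5.42% and 3.59% for Ptges, 52.2% and 52.8%, then 69.1% and 63.1% for Ptgis, and 5.85% and 4.46%, then 6.27% and 4.79% for Ptgir. For Ptges3 in endothelial-like cells they were 32.7% and 44.9%, then 30.2% and 37.8%. At a fold of 2, fibroblast-like members numbered 0 higher and 1 lower and macrophage-like members 0 lower. The lower fold tried gave 2 macrophage-like members lower, and a minimum of 10 UMIs gave 2 higher. The shares of all genes past these cuts are not given here, so these counts say nothing about the members as a set. No paired analysis was possible because each genotype is 1 library and the labels carry no replicate numbers.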

Other observations

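Leukotrienes are made from the same arachidonic acid by a separate branch. Most of its genes listed here were highest in a myeloid class among those searched, which left out the small monocyte-like and Schwann-like classes. An exception was the hydrolase Lta4h, highest in the mixed NK cell-like class (141 and 130 CPM) from only 16 and 17 UMIs. It was also present in endothelial-like (84.0 and 102 CPM, from 78 and 92 UMIs) and fibroblast-like cells (56.3 and 65.4 CPM). Alox5ap, the protein that presents arachidonic acid to 5-lipoxygenase, was highest in dendritic cell-like cells at 1430 CPM (wild type) and 1412 CPM (AC8), a ratio of 0.988 with a counting interval of 0.874 to 1.12. Ltc4s, the leukotriene C4 synthase, was highest in macrophage-like cells at 165 and 144 CPM (0.876, 0.740 to 1.04). Their receptors Cysltr1 (94.8 and 70.4 CPM) and Ltb4r1 (142 and 99.5 CPM) were highest in dendritic cell-like cells, and both counting intervals of the ratio held 1.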
